A study of Mus musculus with 7 samples.

Results

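The nuclear genes of respiratory complex I were followed in 7 libraries of isolated mouse pancreatic islets. Members were the rows of the gene count table whose symbol starts with Nduf followed by a, b, c, s, v or ab and a digit, leaving out assembly factors (Ndufaf) and the 3 symbols that end in -ps. This gave 43 of 55487 genes. The tested group was 3 libraries of Traf6 KO mice, in which the series text places the loss of Traf6 in beta cells, and the other group was 4 libraries of control mice. All mice of both groups had eaten a 60% high-fat diet for 15 weeks, and all islets had recovered in culture medium for 24 hours before RNA was taken. No source used here gives the driver of the knockout, the control genotype in full, or the age and sex of the mice. No label states how many animals went into a library, so p-values measure the spread between these libraries.

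Complex I takes electrons from NADH, passes them along a chain of iron-sulfur clusters to ubiquinone and pumps protons across the inner mitochondrial membrane. Core subunits do this work, and they are encoded partly in the nucleus and partly in mitochondrial DNA, while a larger set of accessory subunits, all nuclear, builds and stabilises the complex. In beta cells, oxidation of glucose carbon in mitochondria raises ATP, which closes potassium channels and starts insulin release. TRAF6, a ubiquitin ligase of innate immune signalling, is linked by the series title to mitophagy, in which autophagy clears mitochondria. Comparing the genotypes asked whether transcripts of complex I differed between Traf6 KO and control islets under a high-fat diet.

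Library totals ran from 22104256 to 29917292 counts. Levels are given as CPM, a gene's count divided by the size of its library, which is first scaled by TMM, a library factor of edgeR that compensates for a few very abundant genes. Islet genes were present at high level in each group, with Ins2 at 75150 ± 10840 CPM in Traf6 KO and 117000 ± 10380 CPM in control (SD, n = 3 and 4). Digestive enzyme genes of acinar cells, the exocrine cells around islets, took 56.8%, 43.4% and 1.64% of counts in Traf6 KO 1 to 3, against 20.4%, 0.491% and 0.468% in Control 1 to 3 and 3.24% in the library labelled Control 4. Traf6 itself stood at 14.8, 15.4 and 14.5 CPM in the Traf6 KO libraries, against 17.9, 25.5 and 22.1 CPM in Control 1 to 3 and only 12.6 CPM where the label was Control 4, below every Traf6 KO library. Its log2 fold change was -0.40 ± 0.22 (SE, adjusted p = 0.416, edgeR), and counts per gene do not resolve single exons. Traf6 KO 3 was the only library with Xist, the RNA of X inactivation in females, above background. Its level there was 421 CPM, against at most 0.388 CPM in the other libraries. The Y-linked genes Ddx3y, Eif2s3y, Kdm5d and Uty stood at 0 CPM in Traf6 KO 3, against 13.2 to 51.1 CPM in the other libraries. By these transcripts Traf6 KO 3 was female and the other libraries were male. The sample names of Traf6 KO 3 and the library labelled Control 4 hold different identifiers that both start with S. Those of the other libraries start with Q or R. No label says what this letter means, and it is used below only as a tag. In bulk islets, fewer cells of a type and less RNA per cell cannot be told apart.

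Of the 43 members, 40 passed the filter on low counts and were tested. Of the 3 others, Ndufb11b had 0 counts in all libraries, while Ndufa11b and Ndufs6b had 0 counts in the 3 Traf6 KO libraries and at most 2 and 4 counts in any control library. Ndufa11b, Ndufs6b and Ndufb4c are processed pseudogenes in the GENCODE M21 annotation of GRCm38, although their symbols do not say so. The table's Ndufb1 is named Ndufb1-ps there, under the same identifier, and is listed as a long noncoding RNA of a bidirectional promoter. It is placed in the complex here by its symbol. The core of the complex is represented by 7 members, the accessory subunits of the matrix arm by 9, those of the proximal membrane arm by 9 and those of the distal membrane arm by 11. Ndufab1, the mitochondrial acyl carrier protein, sits in both arms. Ndufa4 is now counted as a subunit of complex IV, and Ndufa4l2 is its paralogue.

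The members are spread over 16 chromosomes, and many start beside another gene. Of the 39 protein-coding members, 14 (35.9%) had a protein-coding gene starting head to head on the opposite strand, from 300 bases inside to 1000 bases upstream of the member's start, against 8.66% of all protein-coding genes. Ndufa7 starts 10 bases from Rps28, a ribosomal protein gene, and Ndufb9 starts 18 bases from Tatdn1. Exons of 16 members overlap those of a gene on the other strand. Strand use in counting is not given, so reads in such overlaps cannot be assigned to either gene with certainty. Exons of Ndufb2, Ndufb8 and Ndufb9 also overlap those of a gene on the same strand, which leaves their levels uncertain whatever the strand setting.

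Promoters of 34 members were found in the RefSeq table for GRCm38.p6, as windows from 250 bases before to 50 bases after the start. Their median GC content was 59.2%, against 52.7% for all promoters. Letters of motifs of factors known to act on respiratory genes were searched on both strands. AAGATGGCG, the motif of YY1, stood in 5 of 36 member windows (13.9%), against 1.4% of all 32851 windows. GCATGCGC, from the motif of NRF1, stood in 3 (8.33%, against 2.71%), and the same letters with GC before them in 1 of these (2.78%, against 0.971%). CCGGAAG, an ETS motif, stood in 4 (11.1%, against 8.86%), and TCAAGGTCA, the motif of ERR-alpha, in none of the member windows (0.423% of all). All 5 YY1 matches lay on the gene's own strand, 23 to 36 bases after the start. The 5 stretches of 30 bases are printed to show how alike these positions are, with the motif in capitals.
Ndufa9 (chr6:126849096-126849125, minus strand): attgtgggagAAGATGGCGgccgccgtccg
Ndufc1 (chr3:51408914-51408943, minus strand): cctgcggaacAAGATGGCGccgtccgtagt
Ndufs4 (chr13:114388045-114388074, minus strand): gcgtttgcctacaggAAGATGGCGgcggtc
Ndufs6 (chr13:73328433-73328462, minus strand): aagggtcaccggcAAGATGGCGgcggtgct
Ndufs7 (chr10:80249463-80249492, plus strand): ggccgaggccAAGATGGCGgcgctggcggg
The 3 members with the NRF1 letters carry it before the start.
Ndufa11 (chr17:56717693-56717722, plus strand): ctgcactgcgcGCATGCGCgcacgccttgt
Ndufa6 (chr15:82354356-82354385, minus strand): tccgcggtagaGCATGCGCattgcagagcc
Ndufa8 (chr2:36049328-36049357, minus strand): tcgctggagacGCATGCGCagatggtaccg
A match is a description of letters and not of a bound site.

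No member passed the test between genotypes. In edgeR's quasi-likelihood test, 0 of 40 members had a Benjamini-Hochberg adjusted p under 0.05, and the smallest adjusted p among them was 0.204. The background was the same, with 0 of 16203 genes (0% higher and 0% lower in Traf6 KO). Of the members, 33 of 40 had a log2 fold change below 0 (Traf6 KO over control), beside 49.3% of all genes tested. Their median log2 fold change was -0.20, beside 0.01 over all genes tested, and they ranged from -0.53 (Ndufc1) to 0.21 (Ndufb4c). At an unadjusted p under 0.05 there were 7 members lower in Traf6 KO, beside 7.17% of all genes, and 0 members higher, beside 8.81%. In 6 members all 3 Traf6 KO libraries were lower than all controls, beside 8.68% of all genes, and in 0 members above, beside 5.58%. Of the other tools, limma-voom passed 0 members and the DESeq2 Wald test 0, beside 1.57% of all genes lower in the second. With sample quality weights, limma-voom passed 3 members, all lower in Traf6 KO, beside 2.33% of all genes. These were Ndufc1, Ndufb3 and Ndufa11 (adjusted p = 0.0364, 0.0409 and 0.0426).

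**Figure D1:**
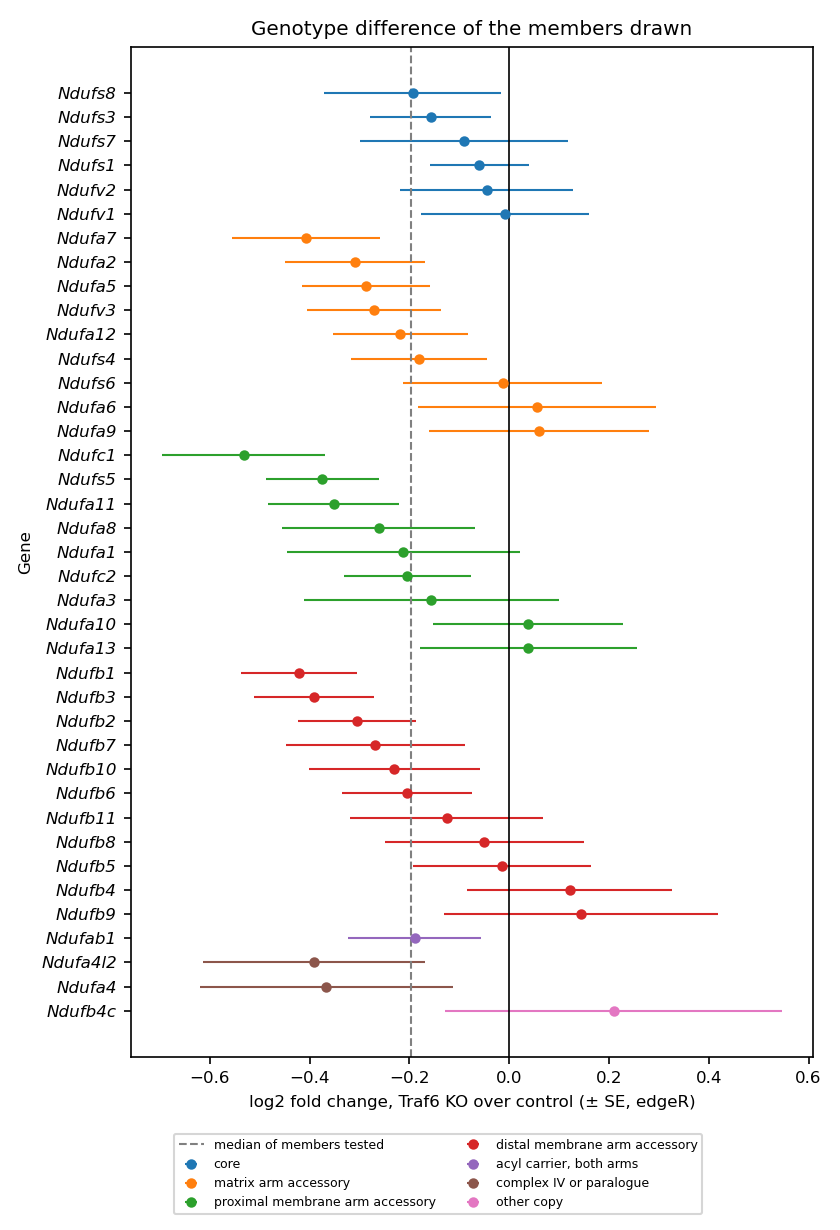
The log2 fold change (Traf6 KO over control, x axis) of the members tested (y axis) is plotted with its SE, coloured by the place of the protein in the complex, and the dashed line marks the median of -0.20. The core subunits drawn lie between -0.19 and -0.01, and the accessory subunits reach from -0.53 to 0.14.

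Among the 4 main places in the complex, the core had the median nearest 0 in the fit of all 7 libraries. All 7 core members had log2 fold changes below 0, beside 49.3% of all genes, with a median of -0.09. In edgeR 0 passed, with 0 at an unadjusted p under 0.05. Without Traf6 KO 1, Traf6 KO 2 and Control 1, which leaves 1 Traf6 KO library, the core ran from -0.67 (Ndufs8) to -0.15 (Ndufs1). The median of all members was then -0.47. Ndufs3, a subunit of the ubiquinone module, had 58.9, 46.1 and 43.8 CPM in Traf6 KO 1 to 3, against 56, 54.8, 58.4 and 51.8 CPM in the libraries labelled Control 1 to 4. The groups overlapped through Traf6 KO 1, the highest of all libraries, and the log2 fold change was -0.16 ± 0.12 (SE).

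Ndufs7 and Ndufs8 carry the iron-sulfur clusters nearest to ubiquinone. Ndufs7 had 62.6, 46.3 and 31.4 CPM in Traf6 KO 1 to 3, against 52.9, 48.2, 51.6 and 45.9 CPM in the libraries labelled Control 1 to 4. Ndufs8 had 38.2, 32 and 21.8 CPM in Traf6 KO 1 to 3, against 36.4, 33.2, 36.5 and 33.8 CPM in the libraries labelled Control 1 to 4. In both genes Traf6 KO 1 was the highest and Traf6 KO 3 the lowest of all libraries, so the spread within Traf6 KO was wider than the difference between groups (log2 fold changes of -0.09 ± 0.21 and -0.19 ± 0.18, SE).

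Ndufv1 holds the flavin that accepts electrons from NADH, and Ndufv2 and Ndufs1 carry further clusters. Ndufv1 had 93.5, 71.4 and 54.9 CPM in Traf6 KO 1 to 3, against 74.3, 74, 76.6 and 69.3 CPM in the libraries labelled Control 1 to 4. Its means were 73.2 ± 19.3 CPM in Traf6 KO and 73.5 ± 3.09 CPM in control (SD, n = 3 and 4). Ndufv2 showed the same order, with 63.8, 46 and 36.6 CPM in Traf6 KO 1 to 3, against 50.5, 50.5, 52.5 and 47.4 CPM in the libraries labelled Control 1 to 4. Ndufs1 varied less, with 63.7, 54.6 and 55 CPM in Traf6 KO 1 to 3, against 59.2, 65.6, 59.2 and 56.6 CPM in the libraries labelled Control 1 to 4. Log2 fold changes of these genes were -0.01 ± 0.17, -0.05 ± 0.17 and -0.06 ± 0.10 (SE). Without Traf6 KO 3, those of Ndufv1, Ndufv2, Ndufs7 and Ndufs8 were 0.16, 0.12, 0.13 and 0.0031, above 0. The value of Ndufv1 also turned above 0 without Traf6 KO 2 (0.0281), Control 1 (0.0239) or Control 3 (0.0151), and that of Ndufv2 without Traf6 KO 2 (0.0121).

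The 6 members without overlap between the groups, beside 8.68% of all genes, were all placed among the accessory subunits of the membrane arm. They were 3 of 9 tested in the proximal and 3 of 11 in the distal membrane arm. Among them, Ndufb1 is placed by its symbol only, since GENCODE M21 lists it as noncoding. The count depends on scaling, with 5 members under DESeq2 size factors (7.46% of all genes) and 27 under library totals (10.2%). Ndufc1, an accessory subunit of the proximal membrane arm, had 17.1, 11.6 and 12.1 CPM in Traf6 KO 1 to 3, against 22.4, 18.9, 18.9 and 18.1 CPM in the libraries labelled Control 1 to 4. Every Traf6 KO library was below every control, and the log2 fold change of -0.53 ± 0.16 (SE, adjusted p = 0.219, edgeR) was the lowest of the members. Ndufs5, of the same arm, had 35.3, 37.5 and 30.3 CPM in Traf6 KO 1 to 3, against 47.2, 40.2, 48.1 and 42.6 CPM in the libraries labelled Control 1 to 4. The groups did not overlap, with a log2 fold change of -0.37 ± 0.11 (SE, adjusted p = 0.219, edgeR). The 250 bases before the RefSeq start are shown for these 2 members, which are among those with the 6 smallest edgeR p. Neither starts head to head with another protein-coding gene. Other members without overlap are not shown. None of the motifs searched is in these stretches.
Ndufc1 (chr3:51408956-51409205, minus strand): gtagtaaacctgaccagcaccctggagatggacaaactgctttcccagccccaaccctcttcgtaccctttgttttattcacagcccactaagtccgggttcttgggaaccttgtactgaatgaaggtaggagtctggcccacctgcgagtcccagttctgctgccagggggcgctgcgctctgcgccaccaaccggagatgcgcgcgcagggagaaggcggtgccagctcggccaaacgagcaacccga
Ndufs5 (chr4:123718187-123718436, minus strand): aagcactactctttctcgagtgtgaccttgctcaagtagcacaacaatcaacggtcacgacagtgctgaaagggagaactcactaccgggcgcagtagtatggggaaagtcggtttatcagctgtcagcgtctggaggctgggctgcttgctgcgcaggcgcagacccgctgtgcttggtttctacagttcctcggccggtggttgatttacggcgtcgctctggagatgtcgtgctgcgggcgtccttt

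**Figure D2:**
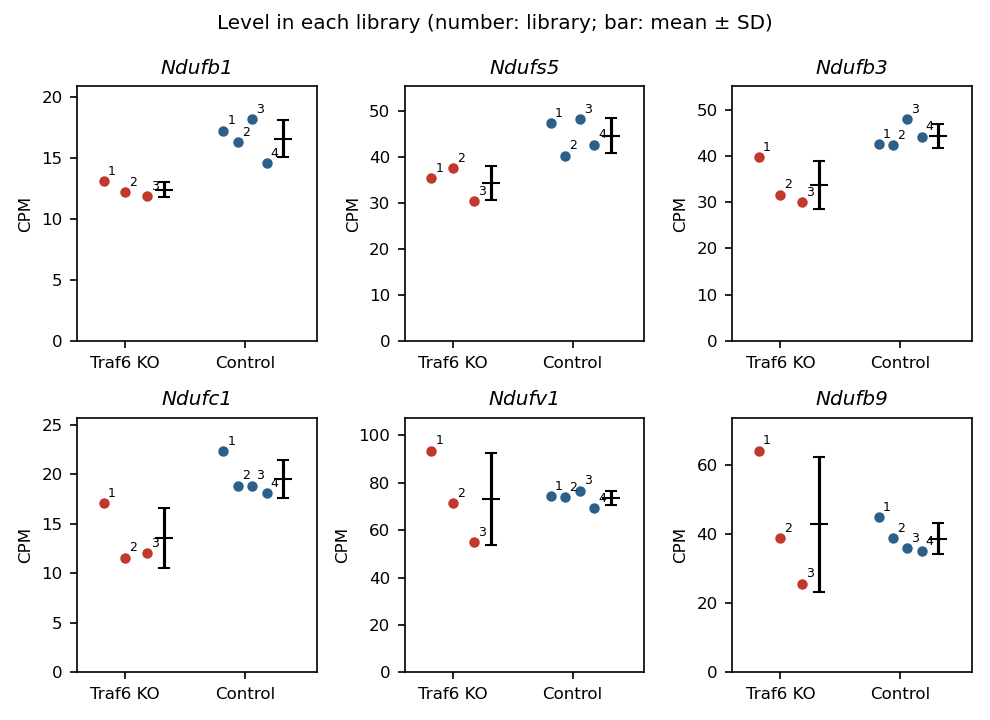
CPM (y axis, from 0) is plotted for 6 members in each Traf6 KO library (red, left) and each control library (blue, right), with the library number beside each point and the mean ± SD as a bar. In Ndufb1, Ndufs5, Ndufb3 and Ndufc1 all Traf6 KO points lie below all control points, whereas in Ndufv1 and Ndufb9 the Traf6 KO points lie on both sides of the controls.

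Ndufa11, also of the proximal membrane arm, had 36.7, 26.6 and 27.4 CPM in Traf6 KO 1 to 3, against 37.4, 36.9, 41.1 and 38.6 CPM in the libraries labelled Control 1 to 4. The groups did not overlap, although Traf6 KO 1 came close to the lowest control, and the log2 fold change was -0.35 ± 0.13 (SE, adjusted p = 0.265, edgeR). Its exons overlap those of Vmac on the other strand, whose log2 fold change was -0.26 ± 0.11 (SE). Of the 6 other members of this arm, Ndufa1, Ndufa3, Ndufa8 and Ndufc2 had log2 fold changes from -0.26 to -0.16, and Ndufa10 and Ndufa13 both stood at 0.04.

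In the distal membrane arm, 9 of 11 members had log2 fold changes below 0, beside 49.3% of all genes, with a median of -0.21. Ndufb1 had 13.1, 12.2 and 11.9 CPM in Traf6 KO 1 to 3, against 17.3, 16.3, 18.2 and 14.6 CPM in the libraries labelled Control 1 to 4. The groups did not overlap, and its log2 fold change of -0.42 ± 0.12 (SE) had the smallest edgeR adjusted p of the members, 0.204. Its exons overlap those of Cpsf2 on the other strand, which stood at 0.06 ± 0.11 (log2 fold change, SE). Ndufb3 had 39.7, 31.6 and 30 CPM in Traf6 KO 1 to 3, against 42.5, 42.3, 47.9 and 44.2 CPM in the libraries labelled Control 1 to 4, again with no overlap (-0.39 ± 0.12, SE, adjusted p = 0.219, edgeR). Ndufb2, the sixth member without overlap, had 8.23, 8.4 and 8.39 CPM in Traf6 KO 1 to 3, against 9.49, 10.7, 10.7 and 10.4 CPM in the libraries labelled Control 1 to 4. It is named after its values were seen. Without Traf6 KO 3 the log2 fold changes of Ndufb1 and Ndufb3 were -0.39 and -0.31.

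The highest fold changes in this arm were in Ndufb9 and Ndufb4. Ndufb9 had 64.2, 38.9 and 25.8 CPM in Traf6 KO 1 to 3, against 45, 38.9, 35.9 and 35.2 CPM in the libraries labelled Control 1 to 4. Traf6 KO 1 was the highest and Traf6 KO 3 the lowest of all libraries, and the log2 fold change of 0.14 ± 0.27 (SE) was -0.25 without Traf6 KO 1. Ndufb4 had 11.6, 7.81 and 6.45 CPM in Traf6 KO 1 to 3, against 7.95, 7.89, 7.7 and 7.91 CPM in the libraries labelled Control 1 to 4. Its copy Ndufb4c had 2.35, 1.24 and 1.17 CPM in Traf6 KO 1 to 3, against 1.54, 1.23, 1.32 and 1.31 CPM in the libraries labelled Control 1 to 4, in the same order within Traf6 KO. Reads may be shared between these 2 copies, so neither level is certain. Their log2 fold changes were 0.12 ± 0.21 and 0.21 ± 0.34 (SE), and -0.13 and -0.16 without Traf6 KO 1.

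In the matrix arm, 7 of 9 accessory members had log2 fold changes below 0, beside 49.3% of all genes, with a median of -0.22. Ndufa7 had 24.6, 18 and 18.1 CPM in Traf6 KO 1 to 3, against 28.8, 23.3, 25.5 and 29.3 CPM in the libraries labelled Control 1 to 4. Traf6 KO 1 lay above the lowest control, and the log2 fold change was -0.41 ± 0.15 (SE, adjusted p = 0.261, edgeR). Its head-to-head neighbour Rps28 stood at 0.25 ± 0.29 (log2 fold change, SE). Ndufs4, a subunit whose loss causes a fatal encephalopathy in mice, had 25.1, 18 and 18 CPM in Traf6 KO 1 to 3, against 24.3, 22.1, 22.9 and 22.7 CPM in the libraries labelled Control 1 to 4. Traf6 KO 1 was the highest library and the other Traf6 KO libraries were the lowest. The others of this arm ranged from -0.31 for Ndufa2 to 0.06 for Ndufa9 and Ndufa6 (log2 fold changes).

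Relative to the control mean of each gene, the lowest value in any library was that of Ndufa4 in Traf6 KO 3, at -1.13 (log2 ratio). Ndufa4 had 53.5, 39.4 and 22.7 CPM in Traf6 KO 1 to 3, against 54.9, 47.8, 50 and 45.5 CPM in the libraries labelled Control 1 to 4. Traf6 KO 1 lay within the controls and Traf6 KO 3 far below them, for a log2 fold change of -0.37 ± 0.25 (SE, adjusted p = 0.503, edgeR), and of -0.10 without Traf6 KO 3. Its paralogue Ndufa4l2, a gene induced by hypoxia, had 3.35, 2.42 and 2.59 CPM in Traf6 KO 1 to 3, against 3.85, 3.21, 3.86 and 3.64 CPM in the libraries labelled Control 1 to 4. Traf6 KO 1 lay above the lowest control, and the log2 fold change was -0.39 ± 0.22 (SE). Exons of Ndufa4l2 overlap those of Shmt2 on the other strand, which stood at 0.75 ± 0.27 (log2 fold change, SE). Ndufab1 had 36.5, 35 and 25.3 CPM in Traf6 KO 1 to 3, against 36.7, 36.6, 37.2 and 36.3 CPM in the libraries labelled Control 1 to 4, with Traf6 KO 3 far below the controls and Traf6 KO 2 just below them.

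The Traf6 KO libraries differed from one another in the same way in most members. Traf6 KO 1 was the highest and Traf6 KO 3 the lowest of the group in 32 of 40 members (80%), beside 26.3% of all genes tested. Traf6 KO 3 was below every control in 40 of 40 members, beside 30.1% of all genes, and was the lowest of all 7 libraries in 33, beside 19.9%. Traf6 KO 2 was below every control in 28 members, beside 31.1% of all genes. Traf6 KO 1 was below every control in 6, beside 34.6%, and above every control in 20, beside 30.3%. The summed level of the 40 members was 1930, 1461 and 1202 CPM in Traf6 KO 1 to 3, against 1804, 1653, 1733 and 1594 CPM in the libraries labelled Control 1 to 4. The spread was 369 CPM in Traf6 KO and 91.8 CPM in control (SD, n = 3 and 4), so the members varied more among the Traf6 KO libraries than between the group means of 1531 and 1696 CPM. On plain library totals the members took 0.0965%, 0.108% and 0.162% of counts in Traf6 KO 1 to 3, against 0.172%, 0.216%, 0.218% and 0.204% in the libraries labelled Control 1 to 4. On that scale Traf6 KO 1 had the smallest share and Traf6 KO 3 the largest of its group, so the order within Traf6 KO depends on the scaling. All 3 Traf6 KO libraries were below the controls on that scale, whereas on the TMM scale Traf6 KO 1 was above them.

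**Figure D3:**
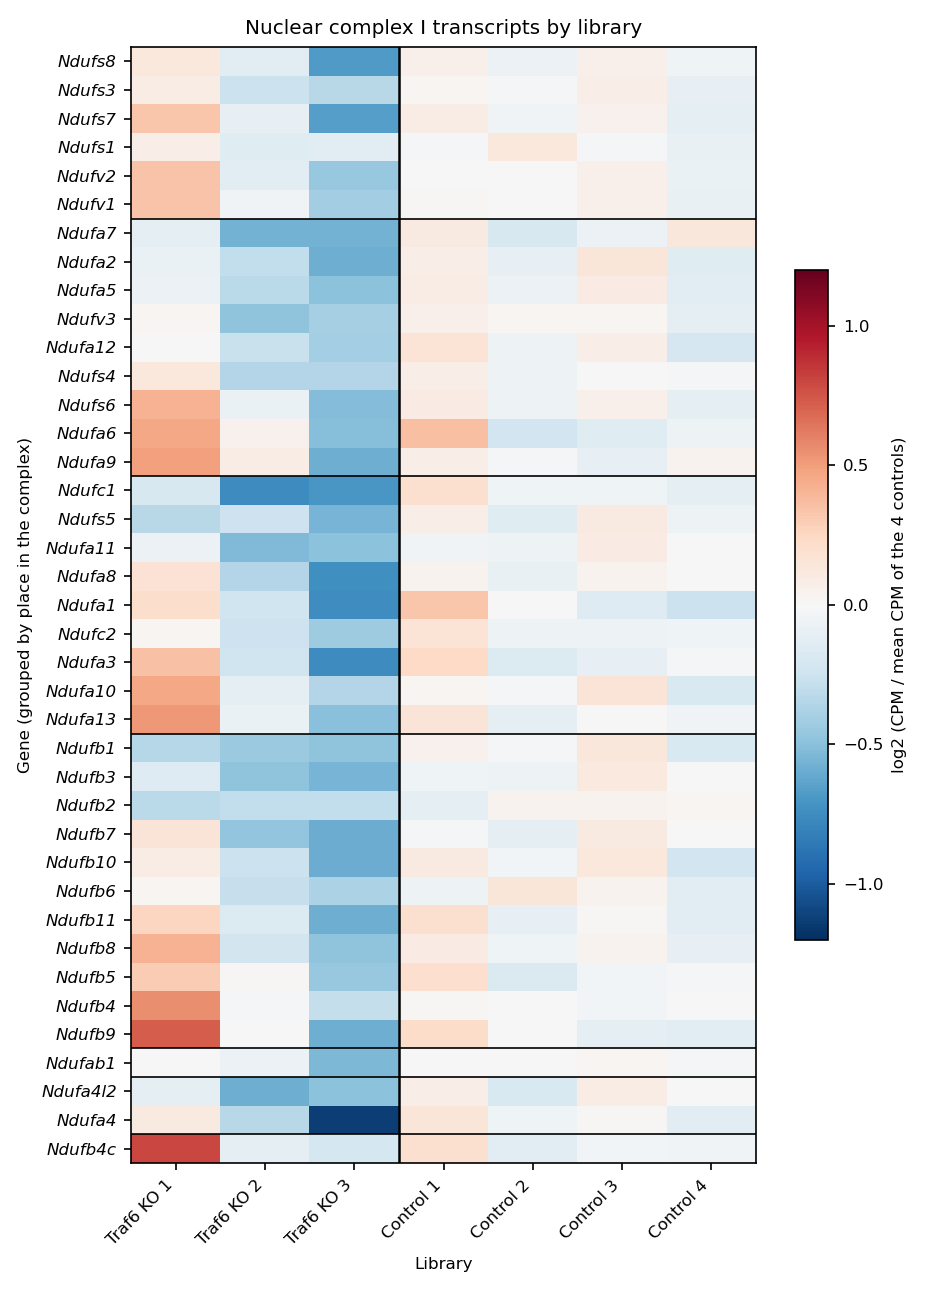
Each row is a member, grouped by its place in the complex (core at the top, then matrix arm, proximal and distal membrane arm, Ndufab1, Ndufa4 and its paralogue, Ndufb4c), and each column a library, Traf6 KO left of the line. Colour gives log2 of the CPM over the mean CPM of the 4 controls. The column of Traf6 KO 3 is below the controls in every row drawn, and that of Traf6 KO 1 lies on both sides of them.

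Some other features moved with these libraries and some did not. The acinar list (34 of 34 genes detected) summed to 1135000, 586100 and 12130 CPM in Traf6 KO 1 to 3, against 213900, 3762, 3726 and 25380 CPM in the libraries labelled Control 1 to 4, in the same order within Traf6 KO as the members. The sum in Traf6 KO 1 is raised on this scale by its TMM factor of 0.5001. When the mean of the acinar list entered the fit as a covariate, 40 of 40 members had log2 fold changes below 0 (50.2% of all genes) with a median of -0.37, and 20 had an unadjusted p under 0.05 (6.8%). Without the 3 acinar-rich libraries (Traf6 KO 1, Traf6 KO 2 and Control 1), which leaves 1 Traf6 KO library, the median was -0.47 and 40 of 40 members were below 0 (52.3%). With each of these settings, 0 members had an edgeR adjusted p under 0.05. The beta-cell list (14 of 15 genes detected) summed to 118800, 104900 and 92430 CPM in Traf6 KO 1 to 3, against 158700 to 192900 CPM in control, in the same order within Traf6 KO as the members. The alpha-cell list had the reverse order, with 18090, 21390 and 27830 CPM in Traf6 KO 1 to 3, against 16460 to 31100 CPM in control. The ductal list followed neither order, with 1087, 803 and 1083 CPM in Traf6 KO 1 to 3, against 687 to 879 CPM in control. Lymphocyte markers (6 of 6 detected) summed to 437 CPM in Traf6 KO 3, against 11.5 to 62.8 CPM in control, and macrophage markers (9 of 9) to 131 to 236 CPM in Traf6 KO, against 155 to 428 CPM in control. Endothelial markers (7 of 7) summed to 345 to 404 CPM in Traf6 KO, against 405 to 477 CPM in control. Every Traf6 KO library was thus below every control for the beta-cell list and, narrowly, for the endothelial list, as for 6 of the members. The part of acinar RNA, of sex and of other cell types in the members' levels was not tested.

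Single libraries carried much of the size of the difference. Without Traf6 KO 1 the median log2 fold change of the members was -0.34, with 40 of 40 below 0 (48.7% of all genes) and 20 at an unadjusted p under 0.05 in the lower direction (7.92%). Without Traf6 KO 3 it was -0.07, with 24 of 40 below 0 (55%) and 4 at an unadjusted p under 0.05 in the lower direction (10.3%). Without the library labelled Control 4 it was -0.21, beside 0.02 over all genes tested. With Q and R tags alone the median was -0.09, beside -0.03 over all genes, with 25 of 40 members below 0 (53.1%). The S-tagged pair holds 1 library of each genotype, and these 2 libraries also differ in sex by Xist and the Y-linked genes. In this pair Traf6 KO 3 lay below the library labelled Control 4 in 40 of 40 members, beside 8423 of 16203 genes tested. This count adds nothing new, because Traf6 KO 3 was below every control in all 40 members. The median log2 ratio of the members in this pair was -0.44, beside -0.02 over all genes tested.

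**Figure D4:**
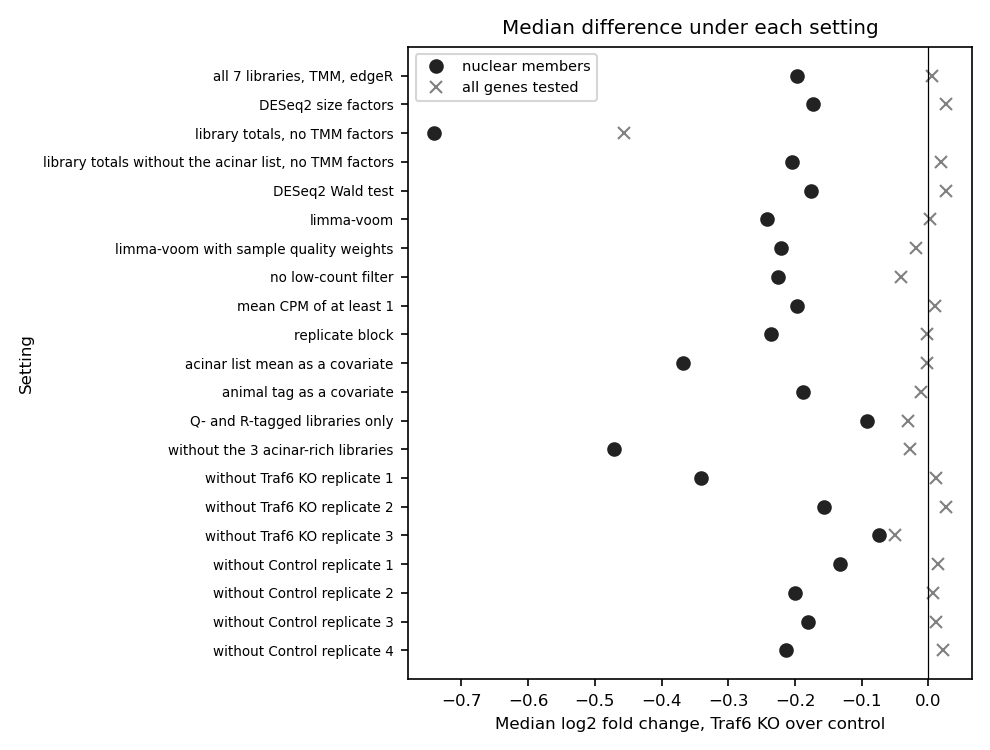
The median log2 fold change (Traf6 KO over control, x axis) over the nuclear members (dots) and over all genes tested (crosses) is plotted for each setting (y axis). The median of the members lies below 0 throughout, from -0.74 with library totals, where that of all genes is -0.46, to -0.07 without Traf6 KO 3, where that of all genes is -0.05.

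Assembly factors, which help to build complex I and are not part of it, were read beside the subunits. Of 18 tested, 15 had log2 fold changes below 0, beside 49.3% of all genes, with a median of -0.19. In edgeR 0 passed, and 2 were lower at an unadjusted p under 0.05, beside 7.17% of all genes. In 3 of them, Ndufaf3, Ndufaf5 and Ndufaf8, every Traf6 KO library was below every control, beside 8.68% of all genes. Ndufaf3 had 11.6, 12.1 and 10 CPM in Traf6 KO 1 to 3, against 16.1, 14.8, 15.1 and 15 CPM in the libraries labelled Control 1 to 4, without overlap. Its log2 fold change was -0.45 ± 0.11 (SE, adjusted p = 0.201, edgeR). Ndufaf5 and Ndufaf8 stood at -0.45 ± 0.17 and -0.34 ± 0.17, and Foxred1 at -0.27 ± 0.16 (SE). Ecsit, an assembly factor that is also known as a binding partner of TRAF6 in Toll-like receptor signalling, had 24.7, 21.6 and 14.8 CPM in Traf6 KO 1 to 3, against 24.1, 21.7, 18.8 and 17.3 CPM in the libraries labelled Control 1 to 4. The groups overlapped, and the log2 fold change was -0.01 ± 0.19 (SE).

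The 7 mitochondrially encoded subunits, which form the proton-pumping core of the membrane arm, did not follow the nuclear members. Relative to the control mean, the median log2 level of the nuclear members was 0.12, -0.25 and -0.50 in Traf6 KO 1 to 3, while that of the mitochondrial genes was -0.07, 0.13 and 0.50. Across the libraries labelled Control 1 to 4 the nuclear members stood at 0.08, -0.05, 0.04 and -0.08 and the mitochondrial genes at -0.20, -0.27, -0.16 and 0.47. The S-tagged libraries, Traf6 KO 3 and the library labelled Control 4, thus had the highest mitochondrial medians, and Traf6 KO 3 had the lowest nuclear median. Between genotypes, 5 of 7 mitochondrial genes had log2 fold changes above 0, beside 8209 of 16203 genes tested, and 0 passed in edgeR. At an unadjusted p under 0.05, 1 was lower, mt-Nd6 (-0.36 ± 0.14, SE), beside 7.17% of all genes. mt-Nd5 stood at 0.45 ± 0.31, mt-Nd4l at 1.35 ± 0.69 and mt-Nd2 at 0.22 ± 0.27 (log2 fold changes, SE). The level of mt-Nd4l was near the floor, at 0.181 to 2.3 CPM over all libraries. mt-Nd3 stood at 0.90 ± 1.17 (log2 fold change, SE). It had 9.81 CPM in Control 2 and 0.918 CPM in the library labelled Control 4, against 104 to 127 CPM in the others.

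**Figure D5:**
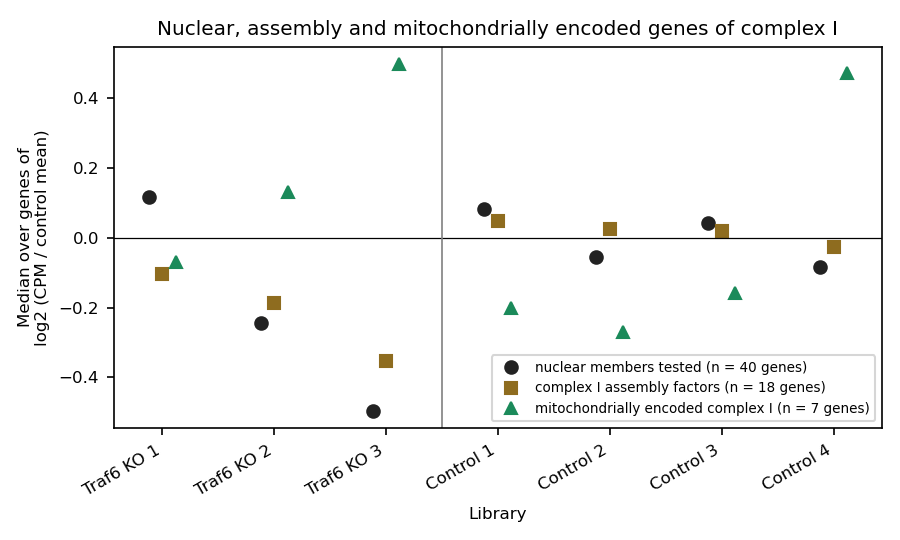
The median over genes of log2 (CPM over the control mean, y axis) is plotted for each library (x axis, Traf6 KO left of the line) for 40 nuclear members, 18 assembly factors and 7 mitochondrially encoded genes. In Traf6 KO 3 the nuclear median is -0.50 and the mitochondrial median 0.50, and in the library labelled Control 4 they are -0.08 and 0.47.

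Regulators of respiratory genes were read in the same way. Of 8 tested, 6 had log2 fold changes above 0, beside 8209 of 16203 genes tested. Their median was 0.08 (-0.38 with library totals, where the median of all genes was -0.46). In edgeR 0 passed, and 1 was higher at an unadjusted p under 0.05, beside 8.81% of all genes. Gabpa, an ETS factor known to act on respiratory genes, stood at 0.40 ± 0.16, Yy1, whose motif is shown above, at 0.19 ± 0.10, and Tfam, the factor that packs and transcribes mitochondrial DNA, at -0.11 ± 0.10 (log2 fold changes, SE). Of the 14 head-to-head partners of members, 13 were tested, and 8 of them had log2 fold changes below 0, beside 49.3% of all genes. Their median was -0.11 and 0 passed in edgeR, with 1 at an unadjusted p under 0.05, beside 16% of all genes.

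Levels of the members relative to each other were compared per kilobase of the exon union, over all 7 libraries. Ndufa1 was highest at 109 ± 25.6 CPM per kilobase, followed by Ndufb11 at 85.3 ± 15.5 and Ndufa2 at 67.0 ± 10.8 (SD, n = 7). Ndufa4l2 at 2.99 ± 0.529 and Ndufb2 at 1.68 ± 0.200 were lowest. The exon union is 5628 bases for Ndufb2 and 1095 bases for Ndufa4l2. Before division by length Ndufb2 was the higher, with means of 8.34 CPM in Traf6 KO and 10.3 CPM in control. Those of Ndufa4l2 were 2.79 and 3.64 CPM. The range over libraries overlapped that of the next member in 37 of 39 neighbouring pairs, so only the order of distant members is resolved. With the longest transcript as the length, Ndufs1 was at 22.2 in place of 7.31 CPM per kilobase and Ndufa7 at 37.4 in place of 13.1, so the order depends on which length is used.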

How the data were processed

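The table deposited by the authors holds counts, 1 column per library, and 100% of its values are whole. The submitters' processing notes name STAR 2.6.1b, RSEM 1.3.1, FastQC and GRCm38 with no role, and a rounded RSEM estimate would divide reads between similar genes. No source used here gives the annotation, strand setting or filters.

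Groups came from the library names in the labels. Quasi-likelihood fits used edgeR 4.0.16 (R 4.3.3) with TMM factors, genotype as the only term and filterByExpr (min.count 10, min.total.count 15). All 16203 genes passing were fitted together, and p-values were Benjamini-Hochberg adjusted over them with a threshold of 0.05. Each SE is the absolute fold change over the root of F. limma 3.58.1 and DESeq2 1.42.0 gave alternatives. The code was tested on simulated data. Every pair of libraries differed beyond sampling noise (lowest chi-square per gene 21.82), so none was a copy of another. Each was taken as 1 replicate, although this check cannot show that libraries came from different animals. All 43 identifiers matched GENCODE M21.

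The members, gene lists and tests were chosen with earlier results of these data known. Of the core, 1 member counts in every total but is not reported here by name or drawn. Values per library are given for the other core subunits, for members with the 6 smallest p or the 3 highest or lowest fold changes, and for Ndufa4 and Ndufa4l2, and genes of other lists are named by smallest p (Ecsit by name). Ndufb2, Ndufs4 and Ndufab1, and the neighbours Vmac, Cpsf2, Rps28 and Shmt2, were added after their values were seen.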

Additional observations from a re-analysis of the deposited data

Results flagged for a closer look

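Within the 4 controls, Ndufc2, an accessory subunit of the proximal membrane arm, was set apart by Control 1, the library richest in acinar transcripts among the controls. Its level was 45.9, 38 and 33.6 CPM in Traf6 KO 1 to 3, against 50.4 CPM in Control 1 and 43.1 to 43.4 CPM in the other controls. The gap below Control 1 was 0.966 of the whole range of the controls, above the critical value of Dixon's test for 4 samples. Chance alone would mark about 1 in 20 groups, and 40 members were looked at.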

How the results depend on the processing

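With library totals in place of TMM the median of all genes shifted to -0.46. The members' median was then -0.74, 0.28 below it, with 21 members at an unadjusted p under 0.05 (8.64% of all genes) and 27 with every Traf6 KO library below every control (10.2%), or 11 (7.89%) with totals freed of acinar genes. Genes higher and lower at adjusted p under 0.05 numbered 489 and 255 in the DESeq2 Wald test, 669 and 377 with quality weights (3 members, and 18 at an unadjusted p, beside 28.6% of all genes), and 61 and 6 without the 3 acinar-rich libraries (31 members at an unadjusted p, beside 16.7% of all genes, with a median of -0.47). That setting leaves 1 Traf6 KO library, assumed to vary like the controls, and it was below the 3 controls in 40 members, beside 33.4% of all genes. The acinar covariate gave 3 higher genes and 20 members at an unadjusted p (15.6%), and the Q- and R-tagged libraries 3 members (21.3%). Same-numbered libraries deviated together for numbers 1 and 3 but not 2 (correlations 0.56, 0.437 and -0.133). Libraries of different numbers did so too, as Traf6 KO 2 with Control 1 (0.511) and Traf6 KO 3 with Control 2 (0.446). The numbers were therefore not taken as pairs. The replicate block, which gave 6 higher genes, 0 passing members and a median of -0.24, has no source in the design. Leaving out 1 library at a time gave 0 to 568 higher genes, 0 to 133 lower genes, 0 passing members, 2 to 20 members at an unadjusted p (9.89% to 23.5% of all genes), 6 to 28 without overlap (10.1% to 17.7%) and medians from -0.34 to -0.07. Directions turned for Ndufv1 (0.017 with DESeq2 size factors, 0.0153 in the Wald test, 0.14 in Q- and R-tagged libraries), Ndufs7 and Ndufv2 (0.0943 and 0.0982 there), Ndufb4 (-0.48 with library totals, -0.017 in limma-voom, -0.11 with the acinar covariate, -0.29 without acinar-rich libraries), Ndufb9 (-0.53, -0.0133, -0.33 and -0.52) and Ndufb4c (-0.39, -0.10 and -0.15, not in limma-voom). With 1 library left out, the ranges were -0.21 to 0.16 for Ndufv1, -0.27 to 0.12 for Ndufv2, -0.34 to 0.13 for Ndufs7, -0.37 to 0.0031 for Ndufs8, -0.13 to 0.29 for Ndufb4, -0.25 to 0.41 for Ndufb9 and -0.16 to 0.39 for Ndufb4c. Medians of assembly factors, mitochondrial genes and regulators were -0.69, -0.18 and -0.38 with library totals, and -0.23 to -0.15, 0.06 to 0.43 and 0.03 to 0.15 with 1 library left out. The causes were not tested. Library depth allowed every member but Ndufa11b, Ndufb11b and Ndufs6b to be tested.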
